A study of Mus musculus with 16 samples.

Results

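The female cardiomyocytes of this series came from 4 mice in which the G protein-coupled estrogen receptor GPER was deleted (GPER KO, animals 417, 419, 426 and 427) and 4 mice with the receptor (intact, animals 418, 421, 422 and 425). They were chosen by the genotype and gender labels, which call the intact mice wild type. They make up 8 of the 16 arrays, with the other 8 from males. Every mouse contributed 1 array of ventricular cardiomyocyte RNA, on which 17097 genes were measured, each by its brightest probe set on average. The labels give an age of 15 weeks for all mice, and the text of the study gives a somewhat higher one. The study describes the deletion as limited to cardiomyocytes, and the Cre driver and strain are not given in the sources used here. The cells were freed by collagenase, strained and spun at low speed without sorting, so RNA of other heart cells can be present.

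GPER is a receptor of the G protein-coupled family that binds estrogen and is found on cell membranes and inside cells, in contrast to the nuclear estrogen receptors. Estrogen acting through it is known to act on adenylyl cyclase, on the epidermal growth factor receptor and on nitric oxide production. In heart muscle, fatty acids burned in mitochondria are the main fuel, and load on the ventricle is known to raise natriuretic peptides and stretch-responsive genes such as Ankrd1.

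All values are log2 values after the authors' robust multi-array average (RMA), and all differences are GPER KO minus intact. A value of 1 on this scale is a 2-fold difference. Single values are given in the order GPER KO 417, 419, 426 and 427, then intact 418, 421, 422 and 425. Gper1, the deleted gene, had values of 2.74, 2.97, 2.79 and 2.66 on the GPER KO arrays and 2.76, 3.11, 2.80 and 2.82 on the intact arrays, so the groups overlapped. The means were 2.79 ± 0.13 for GPER KO and 2.87 ± 0.16 for intact (SD, n = 4 each) (two-sided exact permutation test, p = 0.457, where 0.0286 is the smallest p that 4 against 4 arrays allow). The signal of its only probe set lay at percentile 24.3 of all probe sets, and whether it lies within the deleted sequence is not given in the sources used here, so it checks nothing about the labels. The medians of the arrays were 3.48 to 3.51, and any pair of female arrays correlated at 0.987 to 0.996 over genes. Intact 422 and intact 425 stood apart from the rest of their group. On intact 422, 78 genes lay more than 1 from the mean of the other 3 intact arrays and on intact 425 there were 45, while the other 6 arrays had 11 to 26 against the rest of their groups. The first principal component, with 41.9% of the variance, placed intact 421 and 422 at 0.47 and 0.68 and the other 6 arrays between -0.37 and -0.01. The values of several gene lists without intact 421 and 422, and of several genes without intact 425, are given beside the results. Leaving out an intact array that lies near the GPER KO values widens a difference by itself. A pass without intact 425 therefore shows dependence on that array and is no support for the gene. Cardiomyocyte markers had nearly the highest signals of the array in both groups, for example troponin T, Tnnt2, with 12.69, 12.71, 12.75 and 12.67 on the GPER KO arrays and 12.65, 12.61, 12.52 and 12.74 on the intact arrays.

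In GPER KO cardiomyocytes the stretch-responsive gene Ankrd1, the natriuretic peptide gene Nppa, the secreted factor genes Ndnf and Fgl2 and the p53 target Phlda3 were higher, and the amylase gene Amy1, the monoamine oxidase gene Maob, the catenin gene Ctnna3 and Bckdhb of branched-chain amino acid breakdown were lower. Limma called 21 genes higher in GPER KO (0.123% of the genes tested) and 27 genes lower (0.158%), at an adjusted p under 0.05 over all genes. The genes named first were not equally stable. With 1 array left out, Nppa was called in 1 of the 8 fits, Fgl2 in 3, Amy1 in 6 and the others in all 8. All 48 had groups that did not overlap on any array, which held for 5.69% of all genes. Of the 48 differences, 7 were over 1 in size, 19 were under 0.5, and the smallest was 0.26. Over all genes the median difference was -0.02, and 41.2% of genes were above intact, so the balance of the whole array lay slightly below 0. Without adjustment, 5.05% of genes were higher and 7.53% lower at a p under 0.05.

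**Figure D1:**
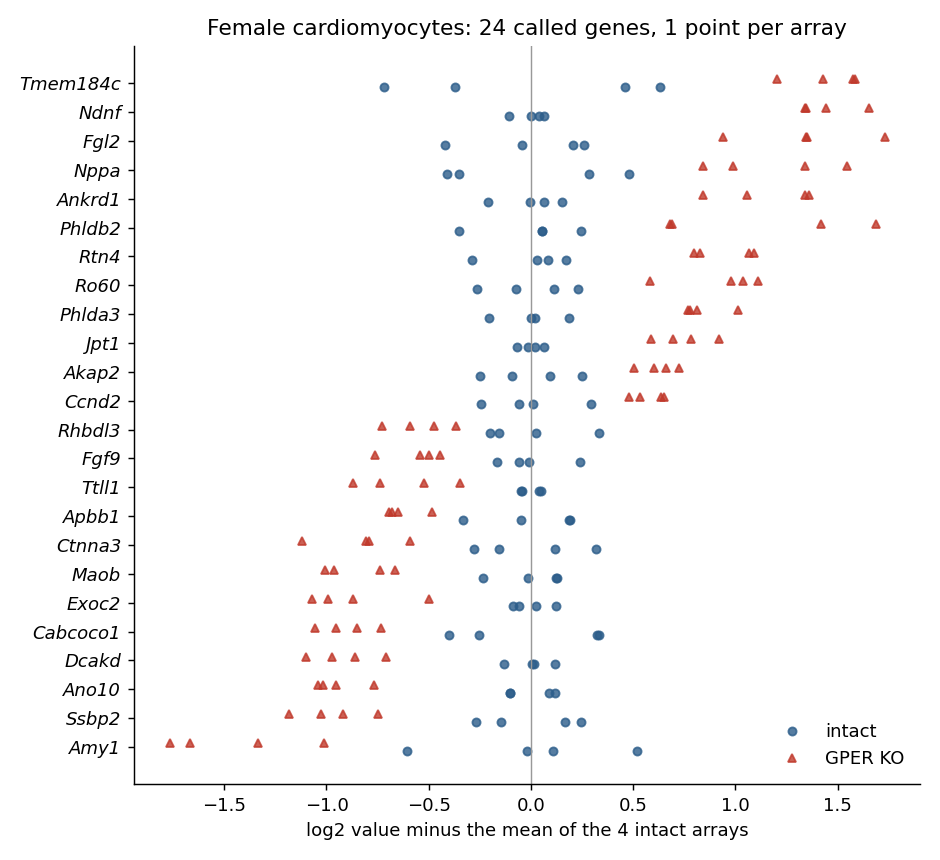
The 12 genes higher in GPER KO and the 12 lower with the largest differences among the 48 called, with 1 point per array (triangles GPER KO, circles intact) on a log2 scale relative to the mean of the 4 intact arrays. In every gene all 4 triangles lie on 1 side of all 4 circles, and Ndnf and Jpt1 show the narrowest intact spread among the higher genes.

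Ndnf, which encodes a secreted neurotrophic factor, had values of 5.53, 5.63, 5.53 and 5.84 on the GPER KO arrays and 4.23, 4.19, 4.25 and 4.08 on the intact arrays, and its difference was 1.44 (standard error 0.07, limma adjusted p = 2.71e-08). The GPER KO arrays spread over 0.31 and the intact arrays over 0.17, with 1.28 between the nearest arrays of the groups. Fgl2, which encodes a fibrinogen-like protein with roles in coagulation and immune regulation, had values of 6.29, 5.88, 6.29 and 6.67 on the GPER KO arrays and 5.20, 4.52, 4.89 and 5.14 on the intact arrays and a difference of 1.34 (standard error 0.24, limma adjusted p = 0.0261). Nppa, which encodes atrial natriuretic peptide, had values of 10.89, 11.03, 11.59 and 11.39 on the GPER KO arrays and 9.63, 10.52, 10.33 and 9.69 on the intact arrays and a difference of 1.18 (standard error 0.24, limma adjusted p = 0.048). The intact values of Nppa fell into a lower pair, 418 and 425, and a higher pair, 421 and 422, and the highest intact value was 0.37 below the lowest of GPER KO. The call of Nppa was close to the threshold and was made in 6 of 18 alternatives on 1 probe set per gene. Its adjusted p from limma was 0.0526 with arrays centred on the median, 0.0532 with the mean of probe sets, 0.0999 with trend and robust settings and 0.119 in the female arrays alone.

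Ankrd1 encodes a cardiac ankyrin repeat protein that binds titin in the sarcomere and also enters the nucleus. Its values were 11.95, 11.97, 11.67 and 11.46 on the GPER KO arrays and 10.68, 10.76, 10.61 and 10.40 on the intact arrays, a difference of 1.15 (standard error 0.13, limma adjusted p = 0.000393), or 2.22-fold on a linear scale. Ankrd1 and Nppa differ in how tightly the intact arrays agreed, with standard deviations (SD) of 0.15 and 0.45. Shown here are the promoter windows of the 3 higher genes with the largest differences that have a single window in RefSeq. Whether these 3 genes are regulated together was not tested. The windows run from 250 bases before to 50 bases after the start of the gene, 5′ to 3′ on the strand of the gene, in build GRCm38.p6: Fgl2 at chr5:21372423-21372722 on the plus strand, Nppa at chr4:148000472-148000771 on the plus strand and Ankrd1 at chr19:36119795-36120094 on the minus strand. Capitals mark matches on either strand to the motifs searched. The TATA-box motif was spelled TATAAA. For TEAD factors the letters were CATTCC. The core of an estrogen response element was taken as GGTCA. The AP-1 motif was TGANTCA, with any base at N. The E-box was searched as CACGTG. A GC box was written as GGGCGG, and the CCAAT box was searched by the letters of its name.
Fgl2: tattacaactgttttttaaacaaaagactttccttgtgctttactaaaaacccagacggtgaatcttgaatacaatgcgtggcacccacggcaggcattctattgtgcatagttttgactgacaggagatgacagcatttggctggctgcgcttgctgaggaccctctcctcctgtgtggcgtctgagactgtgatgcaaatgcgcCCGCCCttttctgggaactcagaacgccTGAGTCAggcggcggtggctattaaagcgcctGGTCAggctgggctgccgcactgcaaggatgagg
Nppa: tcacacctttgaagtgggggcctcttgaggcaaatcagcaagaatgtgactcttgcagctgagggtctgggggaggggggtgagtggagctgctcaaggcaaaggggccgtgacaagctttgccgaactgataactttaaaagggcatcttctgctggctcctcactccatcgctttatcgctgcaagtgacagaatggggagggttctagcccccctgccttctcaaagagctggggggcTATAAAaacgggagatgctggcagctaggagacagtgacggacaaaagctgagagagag
Ankrd1: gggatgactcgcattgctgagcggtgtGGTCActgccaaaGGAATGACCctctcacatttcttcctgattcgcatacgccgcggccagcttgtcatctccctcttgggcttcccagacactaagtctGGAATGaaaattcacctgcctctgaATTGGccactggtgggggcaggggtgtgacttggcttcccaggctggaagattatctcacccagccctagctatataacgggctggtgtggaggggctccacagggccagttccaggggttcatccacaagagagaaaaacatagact

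The Nppa window holds the TATA-box motif and no other motif searched. That motif is in 13.6% of all 32851 windows. The Ankrd1 window holds the TEAD motif in 2 places, the estrogen response core in 2 places and the CCAAT box in 1, and 1 of the estrogen response cores overlaps a TEAD motif. The TEAD motif is in 14.7% of all windows, the estrogen response core in 40.5% and the CCAAT box in 37.4%. The Fgl2 window holds 1 estrogen response core, 1 AP-1 motif (7.81% of all windows) and 1 GC box (35.7%). Of the 21 higher genes 17 have a window, and of the 27 lower genes 22. At least 1 window held the estrogen response core for 6 of the 17 higher and 12 of the 22 lower genes, and the GC box for 13 and 15. The CCAAT box was held for 6 and 8 genes, the TEAD motif for 4 and 5, the TATA-box motif for 2 and 4, the AP-1 motif for 2 and 1, and the E-box, which is in 7.15% of all windows, for 0 and 2. A gene can have several windows, so these counts per gene and the shares per window are not the same measure.

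Jpt1, which encodes a microtubule-associated protein, had values of 9.08, 9.16, 9.30 and 8.97 on the GPER KO arrays and 8.36, 8.44, 8.40 and 8.31 on the intact arrays and a difference of 0.75 (standard error 0.07, limma adjusted p = 0.000187). Rtn4, a reticulon that shapes tubules of the endoplasmic reticulum, had values of 7.21, 7.18, 7.47 and 7.45 on the GPER KO arrays and 6.47, 6.41, 6.09 and 6.55 on the intact arrays and a difference of 0.94 (standard error 0.13, limma adjusted p = 0.00255). Phldb2, a protein of the cell cortex, had values of 4.86, 5.13, 4.13 and 4.13 on the GPER KO arrays and 3.50, 3.50, 3.09 and 3.69 on the intact arrays and a difference of 1.12 (standard error 0.22, limma adjusted p = 0.048). In Phldb2 the GPER KO arrays fell into a higher pair, 417 and 419, and a lower pair, 426 and 427, both above every intact array. Akap2, which anchors protein kinase A, had values of 7.24, 7.46, 7.39 and 7.33 on the GPER KO arrays and 6.83, 6.64, 6.48 and 6.98 on the intact arrays, a difference of 0.62 (standard error 0.11, limma adjusted p = 0.0266). Tmem184c, a transmembrane protein gene, had the largest difference of the higher genes with the widest intact spread, with values of 5.58, 5.74, 5.35 and 5.73 on the GPER KO arrays and 4.61, 3.78, 3.43 and 4.78 on the intact arrays and a difference of 1.45 (standard error 0.28, limma adjusted p = 0.0434). Its intact values were lowest on 421 and 422.

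Phlda3, a p53 target that represses Akt signalling, had values of 5.62, 5.63, 5.87 and 5.67 on the GPER KO arrays and 4.65, 4.86, 5.04 and 4.88 on the intact arrays and a difference of 0.84 (standard error 0.11, limma adjusted p = 0.00241). Ro60, which binds Y RNAs and misfolded RNAs, had values of 5.10, 5.16, 4.71 and 5.24 on the GPER KO arrays and 4.23, 4.05, 3.86 and 4.35 on the intact arrays and a difference of 0.93 (standard error 0.13, limma adjusted p = 0.00429). Ccnd2, the cell cycle gene cyclin D2, had values of 9.20, 9.25, 9.37 and 9.35 on the GPER KO arrays and 8.66, 8.47, 8.73 and 9.01 on the intact arrays and a difference of 0.57 (standard error 0.11, limma adjusted p = 0.0312). The other 9 higher genes differed by 0.28 to 0.57. They were Atp11a (0.57), a phospholipid flippase, Mal (0.55), a membrane raft protein, Il13ra1 (0.53), a receptor chain for interleukin 13, Thumpd3 (0.49), a tRNA methyltransferase, Slc19a2 (0.47), a thiamine transporter, Epn3 (0.39), an endocytic epsin, Wdr44 (0.36), Glt8d1 (0.34) and Slc39a13 (0.28), a zinc transporter.

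Lower genes were led by Amy1, whose probe set may also take up transcripts of closely related amylase genes. Its values were 4.05, 3.40, 3.30 and 3.73 on the GPER KO arrays and 5.58, 5.17, 5.04 and 4.46 on the intact arrays, a difference of -1.45 (standard error 0.24, limma adjusted p = 0.0135), with a gap of 0.41 between the highest GPER KO and the lowest intact array. Ssbp2, a single-stranded DNA-binding cofactor of transcription, had values of 6.13, 6.29, 6.40 and 6.57 on the GPER KO arrays and 7.48, 7.56, 7.17 and 7.05 on the intact arrays and a difference of -0.97 (standard error 0.13, limma adjusted p = 0.00303). Ano10, of the anoctamin family, had values of 6.94, 7.20, 6.92 and 7.01 on the GPER KO arrays and 8.05, 7.86, 8.08 and 7.86 on the intact arrays and a difference of -0.94 (standard error 0.10, limma adjusted p = 0.000393). The intact arrays of Ano10 lay within 0.22 of each other, against 1.12 for Amy1. Dcakd, which carries a dephospho-CoA kinase domain, had values of 4.17, 4.57, 4.42 and 4.30 on the GPER KO arrays and 5.39, 5.28, 5.14 and 5.29 on the intact arrays and a difference of -0.91 (standard error 0.09, limma adjusted p = 0.000187). Exoc2, a subunit of the exocyst that tethers vesicles, had values of 4.67, 5.16, 4.59 and 4.79 on the GPER KO arrays and 5.78, 5.57, 5.69 and 5.60 on the intact arrays and a difference of -0.86 (standard error 0.10, limma adjusted p = 0.000734). GPER KO 419 was the highest GPER KO array for both genes and still below every intact array.

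Maob, the mitochondrial monoamine oxidase B, had values of 7.16, 7.21, 7.43 and 7.51 on the GPER KO arrays and 8.30, 8.29, 8.16 and 7.94 on the intact arrays and a difference of -0.84 (standard error 0.11, limma adjusted p = 0.00231). Ctnna3, the alpha-T-catenin of the intercalated disc, had values of 3.82, 3.80, 3.49 and 4.02 on the GPER KO arrays and 4.93, 4.34, 4.73 and 4.45 on the intact arrays and a difference of -0.83 (standard error 0.13, limma adjusted p = 0.00796). Both genes are known for roles in heart muscle, in breaking down amines and in coupling neighbouring cells. Fgf9, a fibroblast growth factor, had values of 3.78, 3.46, 3.72 and 3.68 on the GPER KO arrays and 4.21, 4.05, 4.46 and 4.16 on the intact arrays and a difference of -0.56 (standard error 0.09, limma adjusted p = 0.0138). Ttll1, a tubulin polyglutamylase, had values of 8.63, 8.49, 9.02 and 8.85 on the GPER KO arrays and 9.42, 9.41, 9.32 and 9.32 on the intact arrays and a difference of -0.62 (standard error 0.10, limma adjusted p = 0.00796). In Ttll1 the intact arrays lay within 0.10 of each other and the GPER KO arrays spread over 0.52. Apbb1, an adaptor of the amyloid precursor protein, had values of 7.71, 7.91, 7.74 and 7.70 on the GPER KO arrays and 8.34, 8.58, 8.58 and 8.06 on the intact arrays and a difference of -0.63 (standard error 0.11, limma adjusted p = 0.0229). Cabcoco1 had values of 5.52, 5.74, 5.62 and 5.42 on the GPER KO arrays and 6.81, 6.80, 6.22 and 6.08 on the intact arrays and a difference of -0.90 (standard error 0.17, limma adjusted p = 0.0295), and Rhbdl3, a rhomboid-like gene, values of 4.19, 4.31, 4.42 and 4.06 on the GPER KO arrays and 4.59, 4.63, 5.12 and 4.81 on the intact arrays and a difference of -0.54 (standard error 0.11, limma adjusted p = 0.0488). The nearest arrays of the groups were 0.15 apart for Apbb1, 0.33 for Cabcoco1 and 0.17 for Rhbdl3.

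The other 15 lower genes differed by -0.26 to -0.54. Bckdhb, described with its pathway below, had -0.54 and Pccb -0.38. Regulators among them were Mapk14 (-0.50), the kinase p38 alpha, Tbx5 (-0.33), a T-box factor of heart development, Tbc1d10c (-0.48), an inhibitor of calcineurin, Cmtm8 (-0.41) and Hdlbp (-0.37), the RNA-binding protein vigilin. Metabolic enzymes were As3mt (-0.51), an arsenite methyltransferase, Gcat (-0.49), of threonine breakdown, and Dut (-0.43), the dUTPase. The rest were Uxt (-0.42), 2700081O15Rik (-0.41), Prkrip1 (-0.35), Mif4gd (-0.31) and Snrpn (-0.26). The 10 uncalled genes with the smallest unadjusted p had adjusted p-values of 0.0508 to 0.0663 from limma. Of these, Golm2 (0.66) and Clic5 (0.46), a chloride channel protein, were above intact, and Borcs7 (-0.49), Ube2e3 (-0.40), Nmnat3 (-0.33), a mitochondrial NAD synthase, 4933416E03Rik (-0.24), Hacd1 (-0.36), Mrpl23 (-0.33), Dele1 (-0.32) and Sys1 (-0.32) were below. The other probe set of Dele1 had 0.03. Without intact 425, Golm2, Clic5, Borcs7, Ube2e3, Nmnat3, Hacd1, Mrpl23 and Sys1 passed, with adjusted p-values of 0.00376 (Clic5) to 0.0461 (Sys1) from limma.

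For 24 of the 48 called genes the array carries more than 1 probe set, so the same RNA was read in several places. In 19 of the 24 all probe sets had the same sign, and in 10 each of them also passed an unadjusted p under 0.05 on its own. Ankrd1 had differences of 1.10 and 1.15, Fgl2 1.34 and 1.39, Apbb1 -0.63 and -0.61, Tbx5 -0.36 and -0.33, and the 6 probe sets of Ccnd2 ranged from 0.34 to 0.85 and the 4 of Ro60 from 0.38 to 0.93. The others of these 10 were Jpt1, Mal, Hdlbp and Ndnf, where the other probe set of Ndnf showed 0.25 against 1.44. In 5 genes the probe sets differed in sign: Atp11a (-0.06 to 0.57), Gcat (-0.49 to 0.02), Mapk14 (-0.50 to 0.06 over 6), Rhbdl3 (-0.54 to 0.02) and Ttll1 (-0.62 to 0.06 over 3). The 4 probe sets of Ssbp2 ranged from -0.97 to -0.04 and the 3 of Rtn4 from 0.15 to 0.95. The probe sets of opposite sign had mean signals on the female arrays of 3.41 (Atp11a), 3.58 (Gcat), 2.87 (Mapk14), 3.001 (Rhbdl3) and 4.65 (Ttll1). The probe sets with the smallest difference had 2.81 for Rtn4, 3.47 for Ssbp2 and 2.43 for Ndnf. All of these but those of Gcat and Ttll1 lay below the female array medians of 3.48 to 3.51. The part of low signal in these differences was not tested. Probe sets can also target different ends or isoforms of a transcript, and which isoforms these reach was not tested. A gene was called on 1 probe set, so a smaller difference on its other ones is no independent test.

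**Figure D2:**
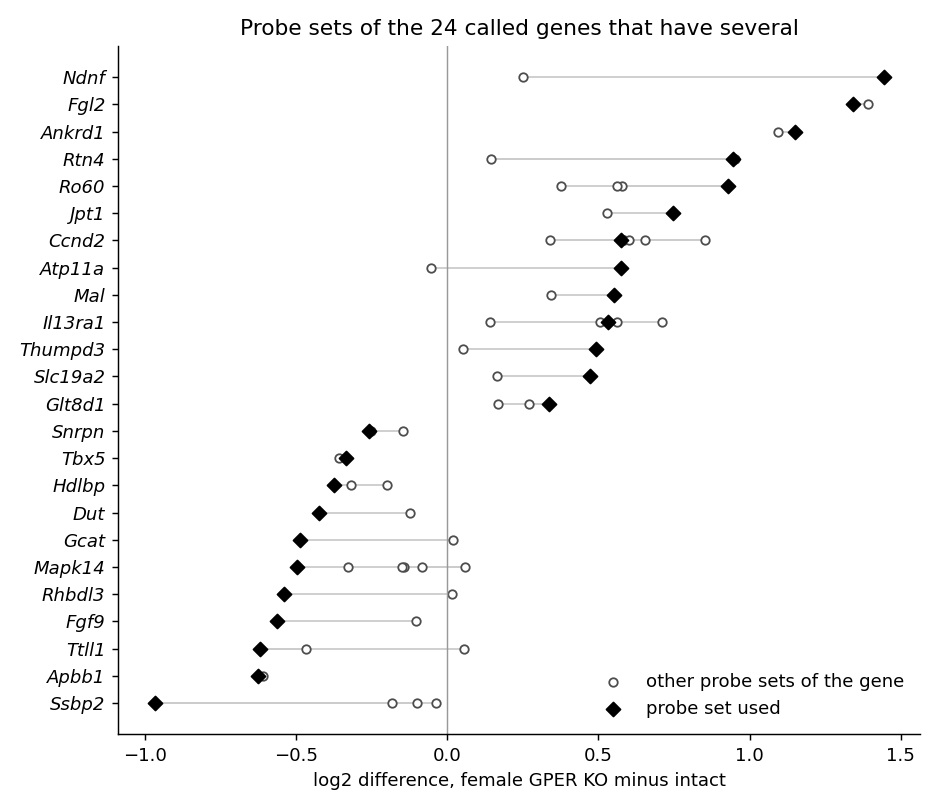
Differences in log2 between female GPER KO and intact for each probe set of the 24 called genes that have several, with the probe set used as a filled diamond and the others as open circles. Fgl2, Ankrd1, Apbb1 and Tbx5 show probe sets close together, while the other probe set of Ndnf differs by 0.25 and Rtn4 and Ssbp2 each have at least 1 probe set within 0.15 of 0.

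The genes were then grouped by function, and each group is described by its counts and its median difference beside the median of -0.02 and the 41.2% above intact over all genes. In mitochondrial fatty acid oxidation, the main source of energy of the heart, 20 of 21 measured genes were below intact. The median was -0.17, none passed the adjusted threshold, and 12 had an unadjusted p under 0.05 and were lower, against 7.53% of all genes. Eci1, an enoyl-CoA isomerase, had values of 10.29, 10.29, 10.29 and 10.28 on the GPER KO arrays and 10.60, 10.80, 10.82 and 10.49 on the intact arrays and a difference of -0.39 (standard error 0.09, limma adjusted p = 0.101). Hadh, the hydroxyacyl-CoA dehydrogenase, had -0.20 (standard error 0.05, limma adjusted p = 0.148). For Ech1 the difference was -0.17 and for the thiolase Acaa2 -0.36. Cpt1b, the muscle carnitine palmitoyltransferase that admits fatty acids to mitochondria, had -0.13 (standard error 0.08, limma adjusted p = 0.536), and Acadm, the medium-chain dehydrogenase, -0.02. The mean of the list was 10.10 to 10.13 on the GPER KO arrays and 10.18 to 10.34 on the intact arrays, with intact 425 nearest to GPER KO. Without intact 425, Eci1 passed at a difference of -0.45 (adjusted p = 0.0319 from limma). Without intact 421 and 422 the median was -0.13, and again 20 of 21 genes were below.

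Acyl-CoA thioesterases, which release fatty acids from coenzyme A, and uncoupling proteins had 11 of 14 genes below intact, a median of -0.04 and no call. Acot1 had values of 4.85, 4.66, 4.52 and 4.69 on the GPER KO arrays and 5.93, 5.98, 7.03 and 4.96 on the intact arrays and a difference of -1.30 (standard error 0.28, limma adjusted p = 0.0759), and Acot2, a close relative whose sequence is so similar that the probe sets may share signal, had -0.74 (standard error 0.18, limma adjusted p = 0.135). The intact values of Acot1 ran from 4.96 on 425 to 7.03 on 422, and those of GPER KO from 4.52 to 4.85. Ucp3, an uncoupling protein of muscle, had -0.56 (standard error 0.21, limma adjusted p = 0.292), with its highest value of 7.21 also on intact 422, and Acot7 had -0.37. Acot1 passed without intact 425, at a difference of -1.63 and an adjusted p of 0.00134 from limma, and so did Acot2, at -0.93 and 0.0108. The median of the list was -0.08 without intact 421 and 422.

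Branched-chain amino acids and propionate are broken down in mitochondria by enzymes of which 12 of 19 were below intact, with a median of -0.08. Of the 19, 2 were called lower, against 0.158% of all genes. Bckdhb, the E1 beta chain of the ketoacid dehydrogenase that commits these amino acids to oxidation, had values of 7.54, 7.58, 7.49 and 7.52 on the GPER KO arrays and 8.20, 8.15, 8.06 and 7.88 on the intact arrays and a difference of -0.54 (standard error 0.08, limma adjusted p = 0.00372). Pccb, a subunit of propionyl-CoA carboxylase, had values of 7.16, 7.16, 7.25 and 7.04 on the GPER KO arrays and 7.54, 7.53, 7.65 and 7.41 on the intact arrays and a difference of -0.38 (standard error 0.07, limma adjusted p = 0.0223). In both genes every GPER KO array was below every intact array. The partner subunit Bckdha had -0.30 (standard error 0.10, limma adjusted p = 0.234), Mccc2 of leucine breakdown -0.32 (standard error 0.08, limma adjusted p = 0.115), Hibadh of valine breakdown -0.14 and Hsd17b10 -0.20. Dbt, the next component of the ketoacid dehydrogenase complex, had -0.07 (standard error 0.12, limma adjusted p = 0.851). Mccc2 passed without intact 425 (-0.37, adjusted p = 0.036 from limma) and with the mean of probe sets (-0.37, 0.0454). When intact 421 and 422 were left out, 4 of the 19 genes were above intact and the median was -0.13. Counted without adjustment, 8 of the 19 were lower and 0 higher, against 7.53% lower and 5.05% higher over all genes.

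Mitochondrial ribosomal proteins and translation factors had 67 of 79 genes below intact, a median of -0.12 and no call. At an unadjusted p under 0.05, 23 were lower and 0 higher, against 7.53% lower and 5.05% higher over all genes. Mrpl23 had values of 8.79, 9.09, 8.94 and 8.88 on the GPER KO arrays and 9.14, 9.36, 9.32 and 9.18 on the intact arrays and a difference of -0.33 (standard error 0.07, limma adjusted p = 0.0581). Mrpl9 (-0.21), Mrpl28 (-0.27), Mrps9 (-0.26), Mrps15 (-0.27) and Tufm (-0.16), a mitochondrial elongation factor, were all below intact and uncalled. Without intact 425, Mrpl23 (-0.35, adjusted p = 0.0395 from limma) and Mrpl9 (-0.27, 0.0416) passed. The list mean was 7.66 to 7.80 on the GPER KO arrays and 7.77 to 7.96 on the intact arrays, so the groups overlapped at intact 425. Without intact 421 and 422 the median was -0.08. Below intact were also 32 of 39 complex I genes (median -0.06), 38 of 43 genes of respiratory complexes III to V (-0.07), 23 of 30 genes of pyruvate oxidation and the citric acid cycle (-0.09) and 60 of 69 cytosolic ribosomal protein genes (-0.08), each with 0 calls. Without intact 421 and 422 the cytosolic ribosomal median was -0.01 against -0.0043 over all genes, with 25 of 69 genes above intact, while the other 3 lists had medians of -0.05 to -0.07.

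The list of cardiac stress and fetal genes had 14 of 29 genes above intact and a median of -0.01, with Ankrd1 and Nppa called higher and none called lower, and the median was 0.02 without intact 421 and 422. Nppb, which encodes the B-type natriuretic peptide, had values of 11.61, 11.37, 10.83 and 10.93 on the GPER KO arrays and 10.34, 10.05, 10.74 and 10.33 on the intact arrays and a difference of 0.82 (standard error 0.20, limma adjusted p = 0.135). Acta1, the skeletal actin gene that is active in the fetal heart, had values of 10.13, 10.08, 10.93 and 10.45 on the GPER KO arrays and 8.17, 9.47, 10.05 and 9.15 on the intact arrays and a difference of 1.19 (standard error 0.34, limma adjusted p = 0.188). The groups did not overlap in either gene, as in 5.69% of all genes, and the distance between the nearest arrays was 0.09 for Nppb and 0.03 for Acta1. Acta1 was named for its small unadjusted p, and that of Nppb is also among the smallest of the list. The lack of overlap follows largely from this and is no separate support. Hif1a had 0.57, and 0.75 without intact 425, where it passed (adjusted p = 0.0362 from limma). Its 2 probe sets differed in sign, at -0.09 and 0.57. Npr3, the clearance receptor of natriuretic peptides, had 0.35. Myl7 and Myl4, the atrial light chains, varied from array to array. Myl7 had values of 6.10, 9.33, 7.69 and 6.85 on the GPER KO arrays and 8.75, 9.57, 9.23 and 7.31 on the intact arrays and Myl4 6.15, 8.78, 7.52 and 6.85 on the GPER KO arrays and 8.39, 9.24, 8.88 and 7.22 on the intact arrays, and their differences of -1.22 and -1.11 were within that spread (adjusted p = 0.503 and 0.475 from limma). The other probe set of Myl4 had -0.06. Nppa is also an atrial marker. Of the 10 measured atrial markers, 8 were below intact, with a median of -0.22, Nppa called higher and Tbx5 called lower, and their mean per array was 5.97 to 6.75 in GPER KO and 6.15 to 6.87 in intact. The median of the atrial markers was -0.05 without intact 421 and 422, with 4 of 10 above intact. The part of atrial cells in these differences was not tested.

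Sarcomere and Z-disc genes had 17 of 29 above intact, a median of 0.03 and no call. Des, the intermediate filament desmin, had values of 10.80 to 11.06 on the GPER KO arrays and 10.52 to 10.78 on the intact arrays and a difference of 0.26 (standard error 0.08, limma adjusted p = 0.188). Nebl, which encodes nebulette, had 0.77, Lmod3, a leiomodin of the thin filament, 0.35, the giant spring protein titin, Ttn, 0.30, and Mybpc3 0.18. Cardiac actin, Actc1, had 0.01 (standard error 0.04, limma adjusted p = 0.932). Genes of the intercalated disc had 16 of 23 above intact and a median of 0.08, with Ctnna3, the only called member, lower.

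Among genes of GPER and estrogen signalling, 13 of 29 were above intact, the median was -0.02 and no gene was called. The balance turned without intact 421 and 422, with 20 of 29 above intact and a median of 0.05. Egfr, the epidermal growth factor receptor, had -0.09 (standard error 0.07, limma adjusted p = 0.663) and Nos3, the endothelial nitric oxide synthase, -0.11 (standard error 0.15, limma adjusted p = 0.82). The smallest unadjusted p in the list belonged to Ccn2, a matricellular growth factor, with values of 9.58, 8.69, 8.37 and 8.56 on the GPER KO arrays and 7.88, 7.58, 8.30 and 8.29 on the intact arrays and a difference of 0.78 (standard error 0.21, limma adjusted p = 0.169). Akt2 had -0.17, Gnai3 0.47 and Gnas 0.12, the last from a probe set near the floor of the array at percentile 12.4. Genes of adrenergic and Gq receptor signalling had 12 of 27 above intact and a median of -0.02, with Maob called lower. Adra1b, an alpha-1 adrenergic receptor, had values of 4.67, 4.66, 4.85 and 4.84 on the GPER KO arrays and 5.35, 5.24, 5.91 and 4.82 on the intact arrays and a difference of -0.57 (standard error 0.17, limma adjusted p = 0.195). Prkar1a, a regulatory subunit of protein kinase A, had 0.24 and the receptor kinase Grk5 0.34. Without intact 425, Adra1b (-0.75, adjusted p = 0.0311 from limma) and Prkar1a (0.34, 0.0416) passed.

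Heat shock proteins had 23 of 39 above intact and a median of 0.04, with no call and with 7 genes higher and 0 lower at an unadjusted p under 0.05, against 5.05% higher over all genes. Hsp90aa1, the inducible cytosolic HSP90, had values of 8.52, 8.41, 8.35 and 8.49 on the GPER KO arrays and 7.62, 7.35, 7.42 and 8.34 on the intact arrays and a difference of 0.76 (standard error 0.17, limma adjusted p = 0.085). Hspa4l had values of 6.74, 6.67, 6.79 and 6.83 on the GPER KO arrays and 6.26, 5.86, 5.66 and 6.66 on the intact arrays and a difference of 0.65 (standard error 0.15, limma adjusted p = 0.085). In both genes intact 425, at 8.34 and 6.66, was next to the GPER KO arrays and the other 3 intact arrays were lower. Both were called without intact 425, at differences of 0.98 and 0.83 (adjusted p = 0.000979 and 0.00117 from limma). Those passes follow in part from leaving out the intact array nearest to GPER KO. Dnajb4 had 0.75, and 0.90 without intact 425 (adjusted p = 0.0426 from limma), and Hsp90b1, the HSP90 of the endoplasmic reticulum, 0.42. The 3 probe sets of Dnajb4 ranged from -0.06 to 0.75. Hspa1b, the stress-inducible HSP70 whose copy Hspa1a is nearly identical, had widely spread values of 7.73, 6.85, 7.07 and 6.50 on the GPER KO arrays and 6.57, 8.78, 8.01 and 7.67 on the intact arrays, and the small heat shock protein Hspb1 had -0.04.

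Of the p53 gene and its targets, 17 of 31 were above intact, with a median of 0.01, Phlda3 called higher and none called lower. At an unadjusted p under 0.05, 7 were higher and 3 lower, against 5.05% higher and 7.53% lower over all genes. Perp, a p53 target of cell junctions and cell death, had values of 9.42, 9.27, 9.22 and 9.30 on the GPER KO arrays and 9.16, 8.998, 8.80 and 8.80 on the intact arrays and a difference of 0.36 (standard error 0.08, limma adjusted p = 0.0897). Eda2r had 0.26, Rrm2b, a ribonucleotide reductase subunit for DNA repair, 0.61, and Fas, a death receptor, -0.23. The cell cycle inhibitor Cdkn1a had values of 6.68, 6.31, 6.92 and 6.69 on the GPER KO arrays and 5.80, 6.22, 7.30 and 5.99 on the intact arrays and a difference of 0.32 (standard error 0.24, limma adjusted p = 0.613), and Mdm2, which limits p53, had 0.22 (standard error 0.12, limma adjusted p = 0.448). Perp passed without intact 418 (0.44, adjusted p = 0.0312 from limma), and without intact 421 and 422 the median of the list was 0.06. Intact 422 held the highest Cdkn1a value of all 8 arrays.

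**Figure D3:**
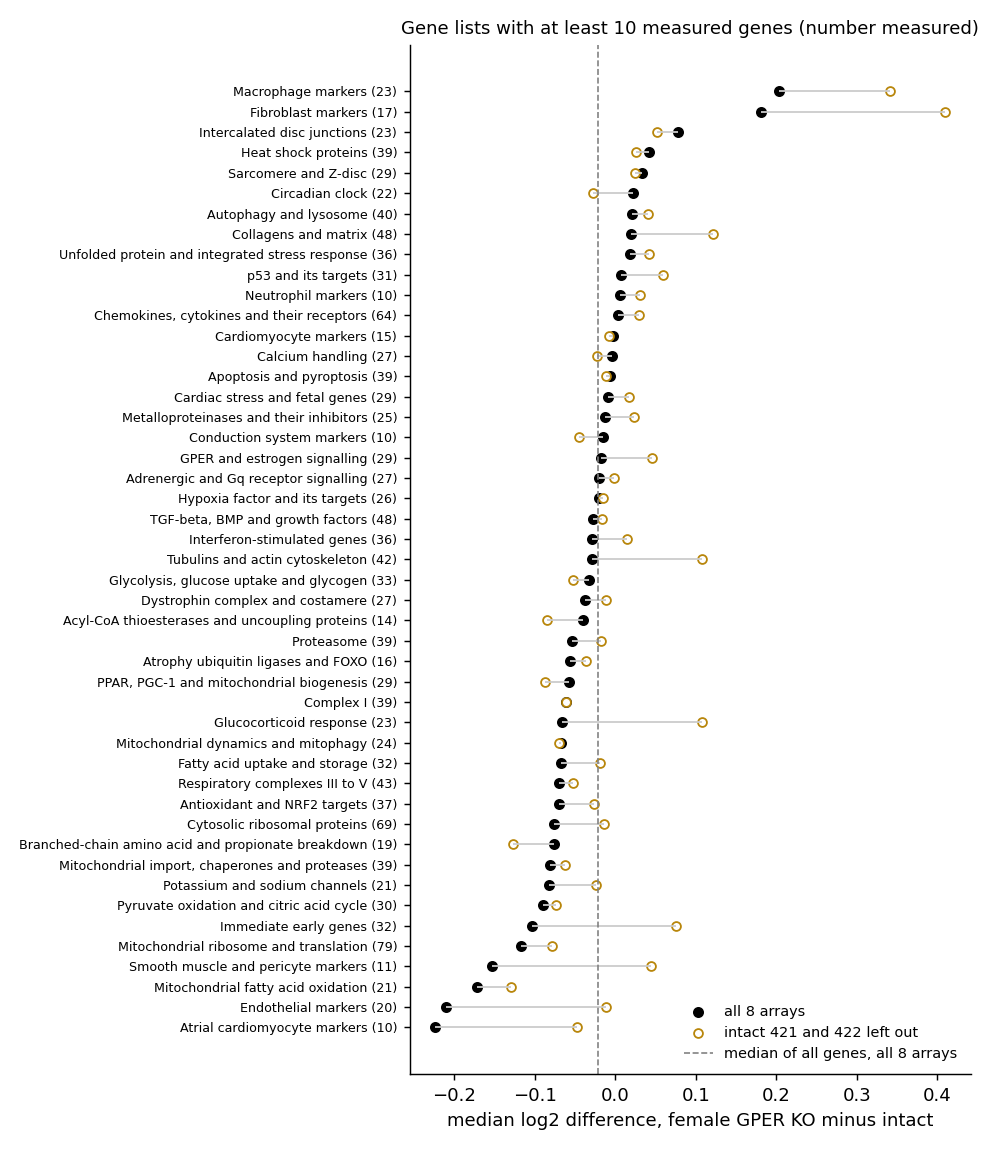
Median log2 difference of each gene list with at least 10 measured genes, with all 8 female arrays (black) and without intact 421 and 422 (open), the dashed line marking the median of all genes with all 8 arrays at -0.02. Macrophage and fibroblast markers lie farthest to the right and stay there without these arrays, fatty acid oxidation genes stay at the left, and endothelial markers lie at -0.21 with all arrays and at -0.01 without these arrays.

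Markers of other heart cells also differed in balance between the groups, and their part in the differences above was not tested. Macrophage markers were above intact for 20 of 23 genes, with a median of 0.20 and no call. Their mean was 4.62 to 4.87 on the GPER KO arrays and 4.39 to 4.60 on the intact arrays. Cd74, a chaperone of antigen presentation, had values of 5.81, 6.20, 6.01 and 5.88 on the GPER KO arrays and 5.31, 5.47, 5.39 and 5.35 on the intact arrays and a difference of 0.60 (standard error 0.13, limma adjusted p = 0.085). Lyz2, lysozyme, had 0.71 (standard error 0.19, limma adjusted p = 0.173), Mpeg1 0.42 and Cd68 0.45. The groups did not overlap in any of these 4 genes, against 5.69% of all genes. These 4 were named for the smallest unadjusted p among the markers, so this follows largely from that choice. The defining receptors Adgre1 and Csf1r had 0.09 and -0.06, both with overlapping groups. Endothelial markers were below intact for 20 of 20 genes, with a median of -0.21 and no call, and their means were 5.59 to 6.03 in GPER KO and 5.80 to 6.24 in intact. Intact 421 and 422 had the highest endothelial means, and without them 9 of 20 genes were above intact and the median was -0.01. The junction cadherin Cdh5 had values of 5.16, 5.69, 5.34 and 4.70 on the GPER KO arrays and 5.49, 6.003, 6.36 and 5.37 on the intact arrays and a difference of -0.59 (standard error 0.27, limma adjusted p = 0.385), and Kdr (-0.37), Pecam1 (-0.35), Vwf (-0.32) and Emcn (-0.31) were also below intact with overlapping groups. The other probe set of Cdh5 had -0.07. Fibroblast markers were above intact for 10 of 17, with a median of 0.18, or for 14 of 17 with a median of 0.41 without intact 421 and 422. Cardiomyocyte markers had a median of -0.0028 with no call and means of 11.19 to 11.28 in GPER KO and 11.17 to 11.25 in intact. Among these, Tbx20, a T-box factor, had 0.52, Tnni3 -0.09, Ckm -0.14 and Tnnt2 0.07. In bulk RNA, more cells of a type and more RNA per cell cannot be told apart. With the means of the endothelial and macrophage markers as covariates limma called 6 genes, of which 5 were among the 48, and all 48 kept their direction. The differences were over 1.5 times smaller with these covariates in 3 of the 48 genes, falling from 1.34 to 0.83 for Fgl2, from 1.18 to 0.76 for Nppa and from -0.63 to -0.41 for Apbb1. In 23 of the 48 they were as large or larger, for example 0.66 for Ccnd2, 0.60 for Atp11a and 0.42 for Epn3. Ccnd2, Atp11a and Epn3 were not called with the covariates, and each had a larger standard error there. The macrophage means of the female groups did not overlap, so this covariate and the genotype are hard to separate. A kept or a smaller difference with these covariates is therefore no test of the part of other cells.

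**Figure D4:**
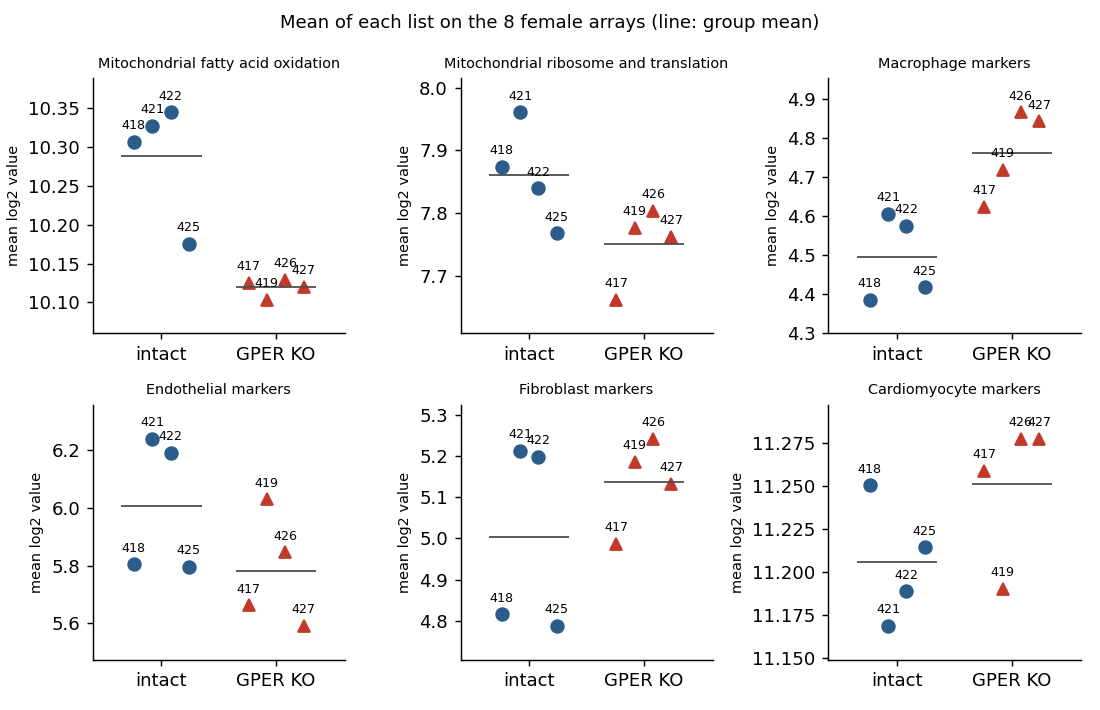
Mean log2 value of 2 mitochondrial gene lists and 4 lists of cell type markers on each female array, labelled by animal number, with a line at each group mean. Fatty acid oxidation genes separate the groups, endothelial means are highest on intact 421 and 422, and each panel has an axis of its own that does not start at 0.

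The number of called genes depended on single arrays. Without GPER KO 417, 419, 426 or 427 limma called 24, 31, 21 and 22 genes, and without intact 418, 421 or 422 it called 42, 20 and 24. Without intact 425 it called 159 genes, 61 higher and 98 lower, of which 113 were not among the 48. For 52 of these 113 genes intact 425 had a value inside the range of the GPER KO arrays, a smaller share than over all genes. Over all 17097 genes its value was inside that range for 10176, against 9622 for intact 418, 8154 for 421 and 7668 for 422. The 113 were picked by leaving out intact 425, so the 52 is no test of its likeness to GPER KO. Resf1, a repressor of retroelements, was the gene in which intact 425 was farthest from the rest of its group, with values of 7.95, 6.81, 6.92 and 7.76 on the GPER KO arrays and 4.89, 5.23, 5.02 and 7.37 on the intact arrays, and its difference was 1.73 (standard error 0.44, limma adjusted p = 0.144). Without intact 425 its difference was 2.31 and it passed (adjusted p = 0.00123 from limma). Next were Myl1 (values of 8.98, 8.86, 6.70 and 7.10 on the GPER KO arrays and 9.70, 9.52, 9.16 and 7.20 on the intact arrays), Myl7, Abhd1 (values of 5.18, 5.06, 5.26 and 6.31 on the GPER KO arrays and 5.64, 3.41, 3.75 and 5.89 on the intact arrays) and Myl4. On intact 422 the farthest genes were Angptl4, an inhibitor of lipoprotein lipase, at 7.73 against a mean of 4.89 on the other intact arrays, Dbp, a clock-controlled factor, at 5.83 against 8.15, Pdk4, which restrains pyruvate oxidation, at 11.7 against 9.52, Rhobtb1 at 6.29 against 8.15 and the transferrin receptor gene Tfrc at 6.60 against 8.45.

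Because the groups did not overlap in any of the 48 genes, leaving out 1 array could not turn their direction. Of the 48, 17 were called with each of the 8 arrays left out in turn. These 17 were Ndnf, Jpt1, Ankrd1, Phlda3, Rtn4, Ro60 and Mal among the higher genes and Dcakd, Ano10, Exoc2, Maob, Ssbp2, Bckdhb, Mapk14, Ttll1, Ctnna3 and Fgf9 among the lower. Ndnf, Jpt1, Ankrd1 and Phlda3 were called under every alternative run on 1 probe set per gene. Nppa was called in 1 of the 8 fits with an array left out, Amy1 in 6, Slc19a2 in 7 and Fgl2 in 3.

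**Figure D5:**
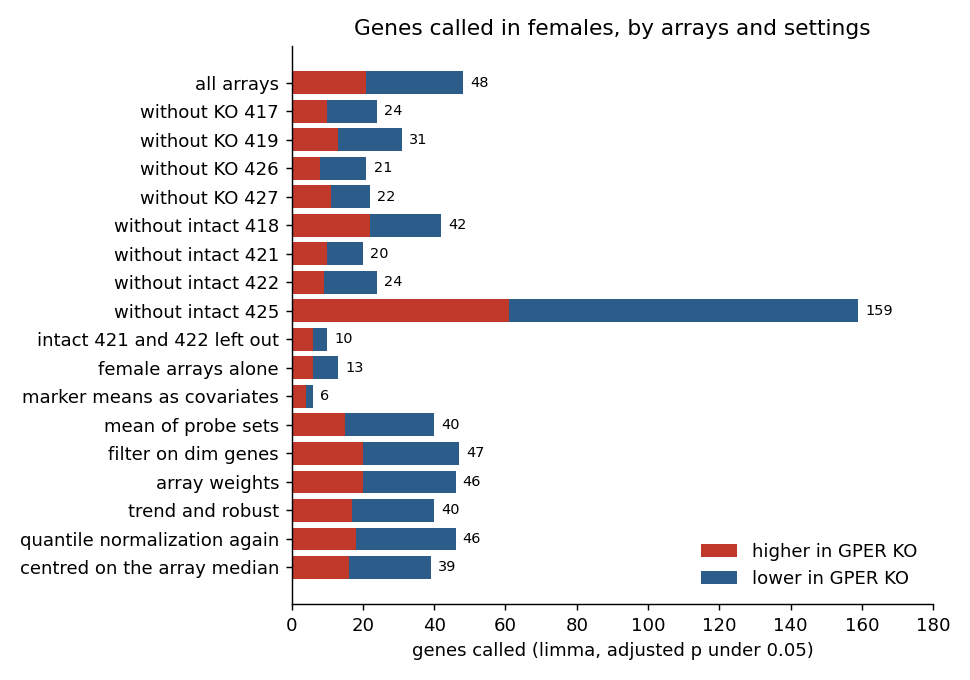
Number of genes called higher (red) and lower (blue) in female GPER KO cardiomyocytes with all arrays, with each array left out and under other settings of the test, with the total beside each bar. Leaving out intact 425 gives 159 genes, and every other setting shown gives 6 to 48.

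The difference between the sexes of the GPER KO minus intact difference was tested for all genes, and limma called 0 (0% of genes), with a smallest adjusted p of 0.322 and 1875 genes at an unadjusted p under 0.05. Males showed the same sign for 43 of the 48 genes called with the female arrays, 17 were also called in males, and 15 had an unadjusted p of the difference between the sexes under 0.05. The shares of all genes with the same sign or a call in males are not given here, so 43 and 17 are no measure of replication. The female and male tests also share 1 estimate of the spread per gene. Among the 48 the smallest unadjusted p belonged to Ro60, with 0.93 in females and -0.11 in males (standard error 0.13, adjusted p of the difference = 0.387 from limma). The other genes with opposite signs were Prkrip1, Wdr44, Tbx5 and Uxt. Prkrip1 had -0.35 in females and 0.11 in males, Wdr44 0.36 and -0.06, Tbx5 -0.33 and 0.02, and Uxt -0.42 and 0.02. These genes were picked by their female difference, so a smaller value in males is no test of a difference between the sexes.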

How the data were processed

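RNA of cardiomyocytes from 16 mice, 4 per group, was hybridised to Affymetrix MG-430 PM arrays (GeneAtlas). The deposited table holds a log2 value for every probe set, made by the authors with RMA, and the submitters' processing notes list RMA and Partek, without versions. RMA commonly subtracts background and equalises the distributions of arrays, which limits differences between whole arrays. No scanner signals were used here, and the 4 arrays per group limit the precision. Of 45141 probe sets, 28898 carry 1 gene symbol in the platform annotation, 551 several and 15692 none, and 28689 were matched by Entrez identifier to the RefSeq gene table of GRCm38.p6. For the 7180 of 17097 genes read by several probe sets, the brightest on average over the 16 arrays was kept, with no filter.

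A linear model of the 4 group means over the 16 arrays was fitted with limma 3.58.1 in R 4.3.3, with moderated variances, so that the 8 male arrays share in the estimate of the spread. P-values were adjusted by the Benjamini-Hochberg method over all genes, and a gene was called at an adjusted p under 0.05. The animals have unique numbers, no animals were paired, and neither array strips nor days of processing are given in the sources used here. The p-values weigh a difference against the spread of arrays within groups, pooled over the 4 groups. With 1 array per mouse, differences between mice, cell preparations and arrays cannot be told apart in that spread. In simulated data of 17097 genes, the female comparison called 78% of 100 genes changed by 0.5 on the log2 scale. It called 98% of 100 changed by 1, and 10 unchanged genes. Whether these figures hold for the arrays of this series was not tested. The 41 function lists, the 18 marker lists, the comparison and the rule for named genes were chosen with earlier results of these data known. They were described by counts and medians, without a set test, and those not named in the text lie in the plot of list medians where they hold at least 10 measured genes.

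The rule names Gper1, every called gene (values on every array for the 12 per direction with the largest difference), the 10 uncalled genes with the smallest unadjusted p, in each list described by its genes the first 3 as written, up to 4 called and the 4 uncalled with the smallest p, and the 5 genes in which intact 422 and intact 425 lay farthest from the rest of their group. Promoter windows, 300 bases each, are from RefSeq (GRCm38.p6), with 39 of the 48 called genes matched. The alternatives were a gene's probe sets averaged, the probe set chosen on the female arrays, a filter for genes that exceed the 40th percentile of all probe sets on 4 or more arrays, the female arrays alone, quantile normalization again, centring on the array median, array weights, trend and robust settings, every probe set tested, each female array left out, intact 421 and 422 left out, and the means of endothelial and macrophage markers as covariates. Applying these to the difference between the sexes was chosen after seeing the data.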

Additional observations from a re-analysis of the deposited data

Results flagged for a closer look

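In 15 of 270 groups of 4 arrays, those of 135 named genes in each genotype, 1 array stood so far from the other 3 that its gap to the nearest, as a share of the whole range, exceeded Dixon's critical value. Chance alone gives about 1 group in 20 such a flag, but 10 of the genes, Pdk4 and Resf1 among them, were named because intact 422 or 425 lay far from its group, so this share is no yardstick for them. Among the intact mice, animal 422 was the outlying one for Pdk4, at 11.7 against 9.47 to 9.56 on the other intact arrays, for Golm2, at 3.11 against 3.63 to 3.69, and for Sys1, at 7.57 against 7.41 to 7.43. Intact 425 was outlying for Resf1, at 7.37 against 4.89 to 5.23, for the called gene Uxt, at 7.02 against 7.30 to 7.36, and for Cpt1b, at 9.93 against 10.2 on each of the other intact arrays. Intact 421 was outlying for Gper1, at 3.11 against 2.76 to 2.82.

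Among the GPER KO mice, animal 419 was the outlying one for the called genes As3mt, at 6.29 against 6.11 to 6.13, and Dut, at 6.60 against 6.44 to 6.47, for Borcs7, at 4.05 against 4.55 to 4.60, and for Prkar1a, at 9.63 against 9.92 on each of the other GPER KO arrays. GPER KO 417 was outlying for Lmod3, at 8.77 against 8.46 to 8.51, for Mdm2, at 6.44 against 6.68 to 6.73, and for Eda2r, at 3.41 against 3.06 to 3.11. GPER KO 427 was outlying for Abhd1, at 6.31 against 5.06 to 5.26.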

How the results depend on the processing

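The 48 called genes kept their direction under every alternative run on 1 probe set per gene. Where an alternative only left out arrays or changed the test on the same values, groups that did not overlap fixed this outcome. The count stayed between 39 and 52 with array weights, centring, every probe set, the filter, the mean of probe sets, the probe set chosen on the female arrays, quantile normalization again, and trend and robust settings. It was 13 (6 higher, 7 lower) in the female arrays alone, 10 (6 higher, 4 lower) without intact 421 and 422, and 6 (4 higher, 2 lower) with marker means as covariates. Without each array in turn it ran from 20 to 159, with 8 to 61 higher and 10 to 98 lower. The cause of these changes was not tested. No paired analysis was possible because the animal numbers are unique to each mouse. The difference between the sexes stayed at 0 calls under all alternatives that hold the male arrays. Of the 87 uncalled genes named, 22 passed under some alternative, 20 of them without intact 425, and the other 2 were Perp without intact 418 and 4933416E03Rik with the mean of probe sets. Medians of the 59 lists moved by more than the spread of the arrays 45 times over all alternatives, 14 with marker covariates and 10 without intact 421 and 422. Among the uncalled genes the sign turned as follows. Without intact 421 and 422 the difference was 0.0024 for Gper1, 0.086 for Hspb1, -0.042 for Mdm2, 0.024 for Csf1r, 0.015 for Angptl4, -0.18 for Dbp, 0.28 for Pdk4, -0.11 for Rhobtb1, -0.60 for Tfrc and -0.31 for Abhd1. With marker covariates it was 0.070 for Nos3, -0.041 for Actc1, 0.45 for Hspa1b, 0.030 for Hspb1, -0.031 for Adgre1, -0.037 for Tfrc and -0.39 for Abhd1. With array weights it was -0.097 for Dbp and -0.14 for Tfrc, with the mean of probe sets 0.0022 for Egfr and -0.075 for Tfrc, and with quantile normalization again 0.014 for Acadm and -0.0033 for Tfrc. With 1 array left out it ran from -0.0056 (without GPER KO 427) to 0.030 for Actc1, from -0.046 to 0.0044 (without intact 418) for Acadm, from -0.15 to 0.0069 (without intact 425) for Dbt and from -0.14 to 0.019 (without intact 422) for Hspb1. Without intact 422 it reached its turned extreme for Dbp (-0.43 to 0.51), Pdk4 (-0.46 to 0.27), Rhobtb1 (-0.19 to 0.57) and Tfrc (-0.46 to 0.21). The number of arrays limits what can be seen, and a gene near the floor of the array, such as Gper1, has little room to fall.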
